A study of Mus musculus with 6 samples.

Results

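Axon guidance genes encode the ligands, receptors and adaptors by which a growing axon reads its surroundings. The 51 genes described here were chosen by symbol from the Slit/Robo, netrin, semaphorin/plexin/neuropilin and Eph/ephrin families. The rule names no measured values, but the genes were chosen with earlier results of these data known. All 51 were found among the 59484 features of the deposited table, of which 23505 carry a gene symbol. They comprise 8 Slit/Robo genes, 8 netrin genes, 22 semaphorin genes with their receptors, and 13 Eph/ephrin genes, or, by role, 25 ligands, 23 receptors and 3 intracellular adaptors.

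PolyA+ RNA of the embryonic day (E) 18.5 cortex of C57BL/6 mice was sequenced from 3 wild-type samples and 3 *Sam68*:*Slm2* double knockout (dKO) samples, with no drug or other treatment in either genotype. Sam68 and SLM2 are related RNA-binding proteins that regulate splicing. As the study describes its breeding, dKO embryos came from intercrosses of *Sam68*+/-:*Slm2*-/- parents. That mating yields no wild-type embryos, so genotype and litter cannot be told apart. The labels give neither litters nor pooling, and *P*-values measure the spread between these samples. Because whole cortex was used, fewer cells of a type and less RNA per cell cannot be told apart.

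In the developing cortex, secreted Slits act through Robo receptors on growing axons, and Robo signals reach the cytoskeleton through srGAP adaptors. Netrins attract axons through DCC and can repel them through UNC5 receptors. Semaphorins bind plexins, directly or with neuropilins as co-receptors. Ephrins are held on the cell surface and signal to Eph receptors on contact, so that both cells can respond. These systems take part in the formation of the corpus callosum, the corticospinal tract and the thalamocortical projection, and in the migration of cortical neurons.

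The deposited values are normalized counts, that is, reads per gene divided by a size factor of the library. Recovered reads ran from 31837922 to 40896541 per library. *Khdrbs1*, which encodes Sam68, had 8231, 8436 and 7974 normalized counts in the wild-type libraries numbered 1 to 3 and 114, 197 and 146 in the dKO libraries in the same order. *Khdrbs3*, which encodes SLM2, had between 12764 and 15215 in wild-type and between 6350 and 7060 in dKO libraries, so that whole-gene reads of this locus were still present in the dKO cortex. The cortical identity genes *Emx1*, *Neurod2*, *Neurod6*, *Tbr1*, *Bcl11b* and *Slc17a7* were all detected, with a summed level between 84831 and 124861 per library, whereas 7 choroid plexus markers summed to between 36.3 and 140.3. The libraries were not uniform. Wild-type library 3 had the highest summed level of 10 striatal neuron markers in its genotype, 4808 normalized counts against 3917 and 4058, and dKO library 2 in its own, 5153 against 3639 and 4819. Libraries numbered 1 of both genotypes had relatively more reads on long transcripts. Across 13974 features with a known exon length, each feature's deviation from its mean over the libraries of both genotypes was set against that length. The Spearman correlation was 0.219 and 0.311 in these libraries and between -0.225 and -0.102 in the others. It includes any genotype difference, and is given as a description because features of a library share its depth and composition.

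All 51 genes were expressed well above the minimum mean of 10 normalized counts used for testing, with means over the 6 libraries from 98.5 for *Sema3d* to 20117 for *Efnb2*. To compare genes with each other, normalized counts were divided by the summed length of each gene's annotated exons. On this per-kilobase (kb) scale, ephrins took 4 of the 6 highest wild-type levels. *Efnb3* and *Efnb2*, transmembrane ephrins of the B class, had means of 3436 and 2861 normalized counts per kb. *Draxin*, a secreted repellent that binds netrin-1 and DCC, followed with 2719. *Efna2* had 1739, *Sema7a*, a membrane-anchored semaphorin, 1402, and *Efna3* 1227. Among receptors, *Plxna1* (926), *Plxnb2* (896), *Unc5a* (777) and *Neo1* (705) had the highest levels per kb. The ranges of mean ± SD of *Efnb3*, *Efnb2* and *Draxin* overlapped in either genotype, as did those of *Plxna1* and *Plxnb2*.

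**Figure D1:**
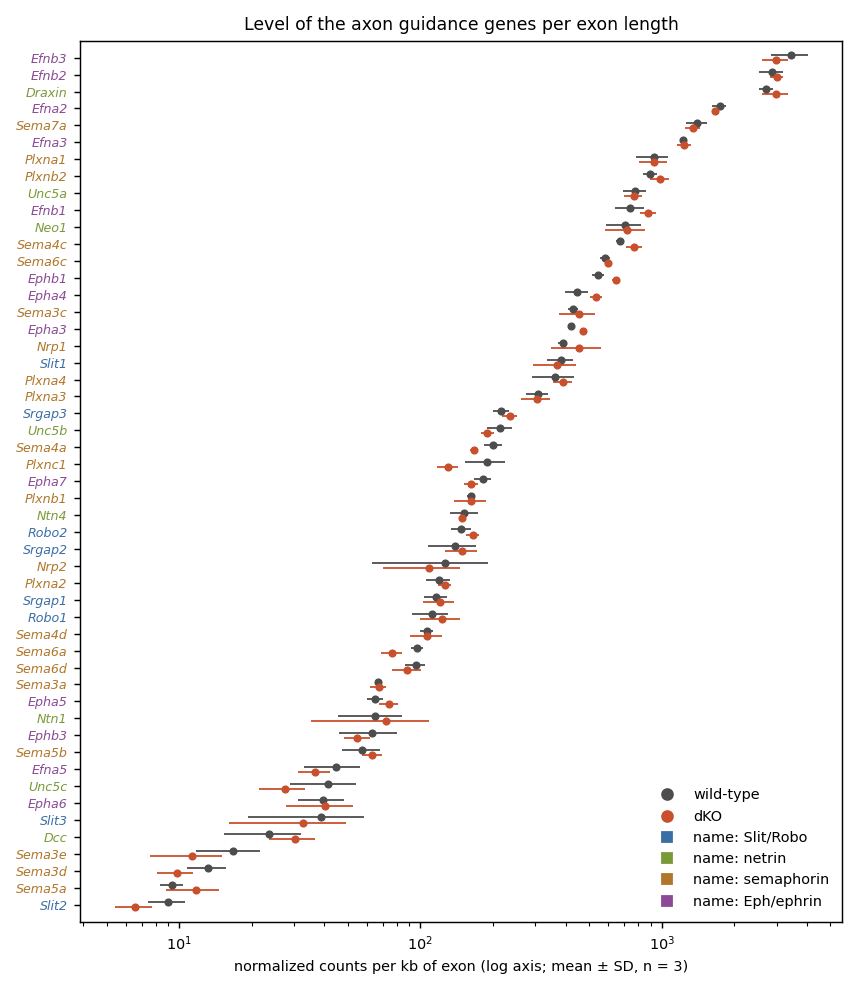
Normalized counts per kb of exon on a log axis for the 51 axon guidance genes, ordered by the wild-type mean; points are means and bars SD of 3 libraries per genotype, and names are coloured by family. *Efnb3*, *Efnb2* and *Draxin* stand at the top with 3436, 2861 and 2719 normalized counts per kb in wild-type, and *Slit2* is lowest with 8.95.

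At the lower end of the same scale stood *Slit2* (8.95 normalized counts per kb), *Sema5a* (9.35), *Sema3d* (13.2), *Sema3e* (16.6) and *Dcc* (23.6). These genes have long annotated exons, 25433 bp for *Slit2*, which include exons of every annotated transcript, so that their levels per kb are lower limits for the transcripts in use. Within families, *Slit1* (382) exceeded *Slit3* (38.8) and *Slit2* per kb, and *Ntn4* (152) exceeded *Ntn1* (64.8). *Nrp1* (389) was higher than *Nrp2* (127).

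None of the 51 genes had an adjusted p under 0.05 between the genotypes by limma with Benjamini-Hochberg adjustment over all 18970 features tested, where the share called was 0.10%. With edgeR the count was also 0, but its share of all features called is not given here, so this 0 has no background beside it. With DESeq2, which called 1.07% of features, the count was 1 (*Plxnc1*). At an unadjusted p under 0.05, 10 of the 51 genes were counted, or 19.6% against 11.5% of all features. Of these, 5 were higher in dKO cortex (9.80% of the genes, background 4.92%) and 5 lower (9.80%, background 6.58%). With edgeR and DESeq2 the count was also 10, against 11.7% and 11.6% of all features. With quantile normalization 2 were higher and 4 lower, together 11.8% of the genes against 10.03% of all features, and in limma without the trend and robust options 4 genes were counted, 7.84% against 9.88%. The genotypes did not overlap for 9 genes, 17.6% against 16.4% of all features. Every dKO library lay above every wild-type one for 6 of them (11.8%, background 7.89%) and below for 3 (5.88%, background 8.48%). These shares describe a list chosen with earlier results known and were not tested.

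**Figure D2:**
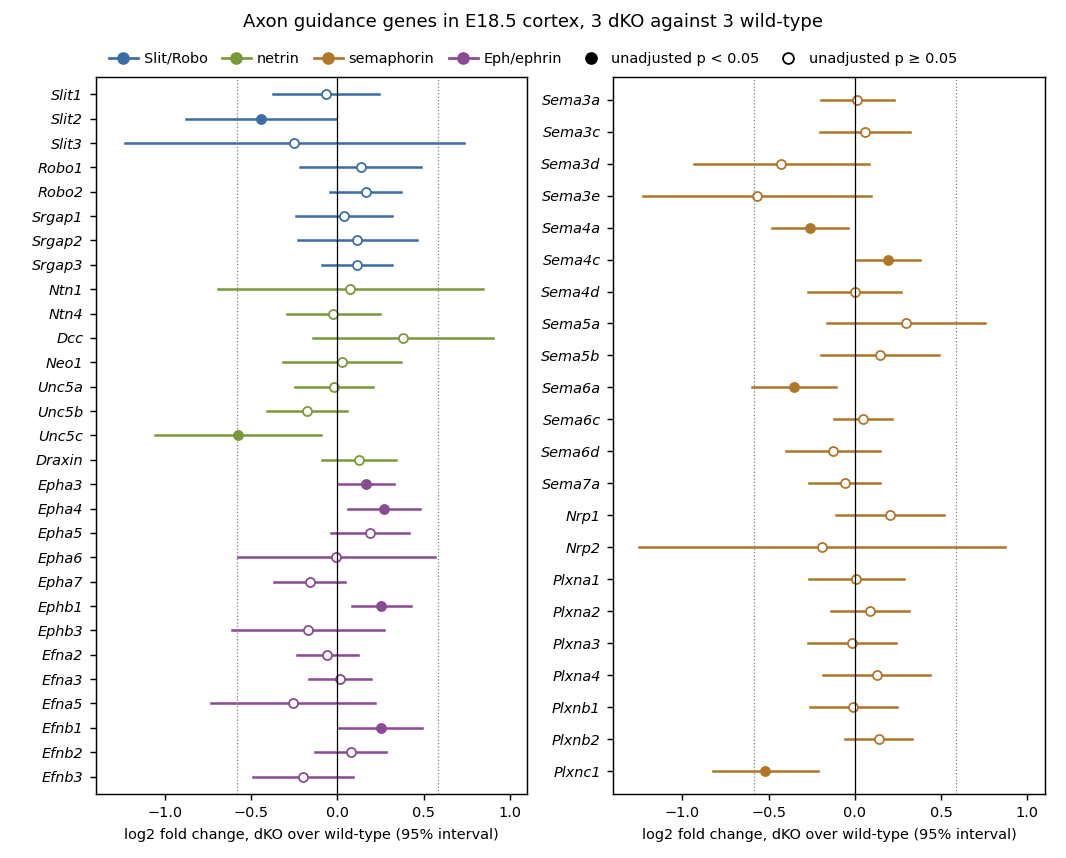
log2 fold change of dKO over wild-type with its 95% interval from limma for the 51 genes, coloured by family; filled points have an unadjusted p under 0.05 and dotted lines mark 1.5-fold in either direction. All 51 points lie between the dotted lines, from -0.58 for *Unc5c* to 0.38 for *Dcc*, and 38 of the intervals do so whole.

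The differences were small throughout. The median log2 fold change of the 51 genes was 0.01, against 0.00 over all features and 0.03 over features at or above the lowest mean of the list. Values ran from -0.58 to 0.38, with 27 positive and 24 negative. All 51 fold changes were within 1.5-fold, against 97.4% of the 13115 features at or above the lowest mean of the list. For 38 of the 51 the whole 95% interval was within 1.5-fold, which is 74.5% against 78.4% of the same features. For the other 13 a change of 1.5-fold in at least one direction was inside the interval.

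Among the Slit/Robo genes, the 3 secreted ligands had negative fold changes and the 5 receptors and adaptors positive ones. The signs of *Slit1*, *Slit3* and *Srgap1* changed when some single libraries were left out. Of the 8, 1 (*Slit2*) had an unadjusted p under 0.05 (12.5%, background 11.5%). *Slit2* had 258, 183 and 243 normalized counts in wild-type libraries 1 to 3 and 166, 198 and 138 in dKO libraries 1 to 3. The genotypes overlapped, since dKO library 2 exceeded wild-type library 2. Its log2 fold change was -0.44 (SE 0.20, limma adjusted p = 0.424). *Slit1*, the most abundant Slit per kb, had 2540.3, 2246 and 1999.8 normalized counts in wild-type and 2689.9, 1918 and 1929 in dKO libraries. Both the highest and the lowest of these values were in dKO cortex, and the log2 fold change was -0.07 (95% interval -0.37 to 0.24). *Slit3* had a log2 fold change of -0.25 with a wide interval from -1.23 to 0.73.

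*Robo2*, one of the Slit receptors of cortical axons, had 2638, 2646 and 2236 normalized counts in wild-type and 2991, 2747 and 2664 in dKO libraries. The ranges did not overlap, although dKO library 3 and wild-type library 2 were nearly equal, and the log2 fold change was 0.16 (95% interval -0.04 to 0.37), or 0.08 without wild-type library 3. *Robo1* had a log2 fold change of 0.13 (95% interval -0.22 to 0.49). The adaptors *Srgap1*, *Srgap2* and *Srgap3* had values of 0.04, 0.12 and 0.11, and all 3 intervals lay within 1.5-fold.

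Of the 8 netrin genes, 1 had an unadjusted p under 0.05 (12.5%, background 11.5%). *Unc5c*, a receptor that mediates repulsion by netrin-1, had 1068, 618 and 691 normalized counts in wild-type libraries 1 to 3 and 418, 644 and 508 in dKO libraries 1 to 3. Wild-type library 1 stood above all others, and dKO library 2 exceeded wild-type library 2, so the genotypes overlapped. The log2 fold change of -0.58 (SE 0.22, limma adjusted p = 0.386) was the largest in size of the 51. It was -0.34 without wild-type library 1 and -0.19 without both libraries numbered 1. The other UNC5 receptors were closer to the wild-type level, with log2 fold changes of -0.02 for *Unc5a* and -0.18 for *Unc5b*.

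*Dcc*, the receptor for attraction by netrin-1, had the highest fold change of the list, 0.38 on the log2 scale, but its 95% interval from -0.14 to 0.90 included 0. Single libraries left out gave 0.21 (without dKO library 3) to 0.65 (without wild-type library 2). *Neo1*, which encodes the DCC relative neogenin, had a log2 fold change of 0.03. Of the ligands, *Draxin* had 13052, 14683 and 14683 normalized counts in wild-type and 17387, 15330.5 and 13685 in dKO libraries. The highest value was in dKO library 1, and dKO library 3 lay inside the wild-type range. Its log2 fold change was 0.12 (95% interval -0.09 to 0.34). *Ntn1* and *Ntn4* had log2 fold changes of 0.08 and -0.02.

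In the semaphorin family 4 of 22 genes had an unadjusted p under 0.05 (18.2%, background 11.5%), 3 lower and 1 higher in dKO cortex. The genotypes did not overlap for any of the 4 (18.2% of the family, near the background of 16.4%). *Plxnc1* had the smallest p of the 51. It encodes plexin C1, the plexin receptor of SEMA7A (identifier GSMG0004486 in the deposited table), and lies on chromosome 10 from 94790869 to 94944578 in the mm10 build. *Plxnc1* had 1531, 1299.7 and 1895 normalized counts in wild-type libraries 1 to 3 and 1162, 1145 and 962 in dKO libraries 1 to 3. Wild-type library 3 was highest, and the lowest wild-type value was still above the highest dKO value. The mean was 1575 ± 300.3 in wild-type and 1089 ± 111 in dKO libraries (SD, n = 3 each), and the dKO level was 69.1% of wild-type. The log2 fold change was -0.52 (SE 0.14). The limma adjusted p was 0.277, while DESeq2 on the recovered reads gave an adjusted p of 0.034. Leaving out any single library gave log2 fold changes from -0.65 to -0.38, with an unadjusted limma p of 0.016 at most.

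*Sema7a*, which encodes the ligand of plexin C1 and was the most abundant semaphorin gene per kb, had 5006, 4722 and 4139 normalized counts in wild-type and 4111, 4755 and 4429 in dKO libraries. The ranges overlapped almost fully. Its log2 fold change was -0.06, with a 95% interval from -0.27 to 0.15.

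*Sema6a*, a transmembrane semaphorin that signals through plexins A2 and A4, had 874, 799 and 882 normalized counts in wild-type libraries 1 to 3 and 649.8, 744 and 611 in dKO libraries 1 to 3. Every dKO value was below every wild-type value. The log2 fold change was -0.35 (SE 0.11, limma adjusted p = 0.335), and ranged from -0.43 to -0.29 when single libraries were left out. Of the plexins named, *Plxna2* had a log2 fold change of 0.09 and *Plxna4* of 0.13.

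*Sema4a*, another transmembrane ligand, had 1131, 973 and 1142 normalized counts in wild-type and 911, 931 and 862 in dKO libraries. The groups were separated by less than the spread of the wild-type libraries, with a log2 fold change of -0.26 (SE 0.10, limma adjusted p = 0.386). *Sema4c*, which signals through plexin B2, was higher in dKO cortex, with 3101, 3204 and 2976 normalized counts in wild-type and 3849.7, 3403 and 3369 in dKO libraries. dKO library 1 stood above the rest, and the log2 fold change was 0.19 (SE 0.08, limma adjusted p = 0.414). *Plxnb2* itself had a log2 fold change of 0.14 (95% interval -0.06 to 0.33).

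**Figure D3:**
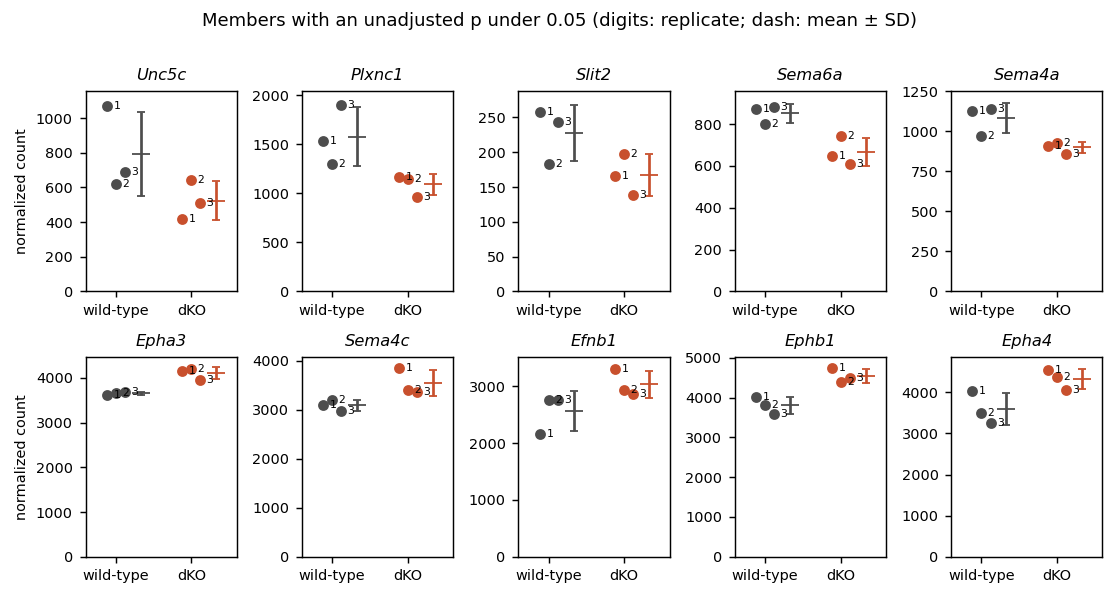
Normalized counts (axis from 0) of the 10 genes with an unadjusted p under 0.05 in each wild-type and dKO library; digits beside the points are replicate numbers, and dashes with bars are the mean ± SD of 3 libraries. The genotypes are separate for all but *Unc5c* and *Slit2*.

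*Plxna1* and *Sema6c* are listed by the study as regulated in splicing in the dKO cortex, and only their whole-gene abundance was measured here. *Plxna1*, a plexin for secreted semaphorins together with neuropilins, had 9814, 7966 and 7382 normalized counts in wild-type and 9426, 8627 and 7209.6 in dKO libraries. *Sema6c* had 3317, 3636 and 3390.2 in wild-type and 3577, 3648 and 3463 in dKO libraries. Both genes overlapped between the genotypes. Their log2 fold changes were 0.01 (95% interval -0.27 to 0.28) and 0.05 (-0.12 to 0.22), so both intervals lay within 1.5-fold.

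The other semaphorin genes had an unadjusted p over 0.05. Of the secreted class 3 ligands, *Sema3d* and *Sema3e* had low counts and log2 fold changes of -0.43 (95% interval -0.93 to 0.08) and -0.57 (-1.23 to 0.10), and the more abundant *Sema3a* and *Sema3c* had 0.01 and 0.06. The transmembrane ligands *Sema4d*, *Sema5a*, *Sema5b* and *Sema6d* had values of -0.00, 0.30, 0.15 and -0.13. The neuropilins, obligate co-receptors of most class 3 semaphorins, had 0.20 for *Nrp1* (95% interval -0.11 to 0.51) and -0.19 for *Nrp2* (-1.25 to 0.87). Without dKO library 1 the value of *Nrp1* was 0.0214. *Plxna3* and *Plxnb1* were at -0.02 and -0.01.

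The Eph/ephrin family had 4 of 13 genes with an unadjusted p under 0.05 (30.8%, background 11.5%). All 4 were higher in dKO cortex (background 4.92%). They were also the genes of the family without overlap of the genotypes (30.8%, background 16.4%, or 7.89% for dKO above). These shares were not tested. Of these, 3 were receptors. *Ephb1*, a receptor of B-class ephrins, had 4015, 3819.5 and 3585 normalized counts in wild-type libraries 1 to 3 and 4738, 4399 and 4484 in dKO libraries 1 to 3. The lowest dKO value exceeded the highest wild-type value. The log2 fold change was 0.26 (SE 0.08, limma adjusted p = 0.335), and ranged from 0.21 to 0.29 when single libraries were left out.

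*Epha4*, which binds ephrins of both classes and acts in corticospinal axons, had 4023, 3507 and 3252 normalized counts in wild-type and 4546, 4362 and 4053 in dKO libraries. The closest libraries of the genotypes, wild-type 1 and dKO 3, were nearly equal. The log2 fold change was 0.27 (SE 0.09, limma adjusted p = 0.364). *Epha3*, a receptor of A-class ephrins, had 3613, 3652 and 3692 normalized counts in wild-type and 4156, 4197 and 3959 in dKO libraries. Its libraries varied least within a genotype of all 51 genes, by a coefficient of variation (CV, the SD as a percentage of the mean) of 2.32%. The log2 fold change was 0.17 (SE 0.07, limma adjusted p = 0.415).

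The direction was not shared by every Eph receptor. *Epha5* had a log2 fold change of 0.19, *Epha6* of -0.01 (0.0765 with quantile normalization), *Epha7* of -0.16 and *Ephb3* of -0.17, and for these 4 the genotypes overlapped. The summed level of the 7 receptors lay between 13889 and 15511 normalized counts in wild-type and between 15668 and 16909 in dKO libraries, mostly from the abundant *Epha3*, *Epha4* and *Ephb1*. The summed level of the 6 ephrins overlapped, with 38534 to 41042 in wild-type and 39139 to 41000.3 in dKO libraries.

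Among the ephrins, *Efnb1* had 2158, 2760.4 and 2766 normalized counts in wild-type and 3298, 2939.6 and 2858 in dKO libraries. Wild-type library 1 was well below the rest and dKO library 1 above, and the log2 fold change was 0.25 (SE 0.11, limma adjusted p = 0.423), or 0.13 with wild-type library 1 left out and 0.0689 without both libraries numbered 1. *Efnb1* and *Plxna3* lie on the X chromosome. *Xist*, the RNA of the inactive X, was high in 1 library per genotype, with 2793 normalized counts in wild-type library 2 and 1661 in dKO library 3, against 12.3 at most in the others. *Efnb3* had 11068, 8963 and 12774 normalized counts in wild-type and 9751, 10414 and 8218 in dKO libraries. These values overlapped, with a log2 fold change of -0.20 (95% interval -0.49 to 0.09). *Efnb2* had 0.08, *Efna2* -0.06, *Efna3* 0.02 and *Efna5* -0.26 on the same scale, each with an interval that included 0.

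The exact two-sided permutation test over the 6 libraries, for which 0.1 is the smallest p that 3 against 3 allow, gave 0.1 for the 9 genes without overlap and 0.2 for *Slit2* and *Unc5c*. Of the 10 genes, *Plxnc1*, *Sema6a* and *Ephb1* kept an unadjusted p under 0.05 with any single library left out, with largest values of 0.016, 0.039 and 0.044 by limma. The other 7 did not.

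The genes varied between libraries of one genotype by a median CV of 11.8%, against 9.92% over features at or above the lowest mean of the list. *Slit3* (50.6%), *Nrp2* (43.2%) and *Ntn1* (41.7%) varied most. *Slit3* had 209, 132 and 366 normalized counts in wild-type and 167, 309.5 and 116 in dKO libraries. *Ntn1* had 380.4, 301 and 538 in wild-type and 303, 714 and 333 in dKO libraries. Both genes were highest in wild-type library 3 and dKO library 2, as were 8 of 10 striatal markers within each genotype (*Drd2*, *Adora2a*, *Penk*, *Tac1*, *Isl1*, *Ebf1*, *Rarb* and *Six3*). The other 2, *Ppp1r1b* and *Drd1*, the most abundant of the list in most libraries, were lowest there. *Ppp1r1b* had 2166 normalized counts in wild-type library 3 against 2470.0 and 2542, and 2353 in dKO library 2 against 2534 and 3263. *Ebf1*, a transcription factor of striatal neurons, had 270.0 normalized counts in wild-type library 3 and 435 in dKO library 2, against 65.5 to 143 in the others. The same 2 libraries were the highest of their genotype in the summed level of radial glia markers (51547 and 51366 normalized counts against 40861 to 45753) and of interneuron and ganglionic eminence markers (14436 and 11754 against 8697 to 10034), so they do not stand apart in striatal markers alone.

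**Figure D4:**
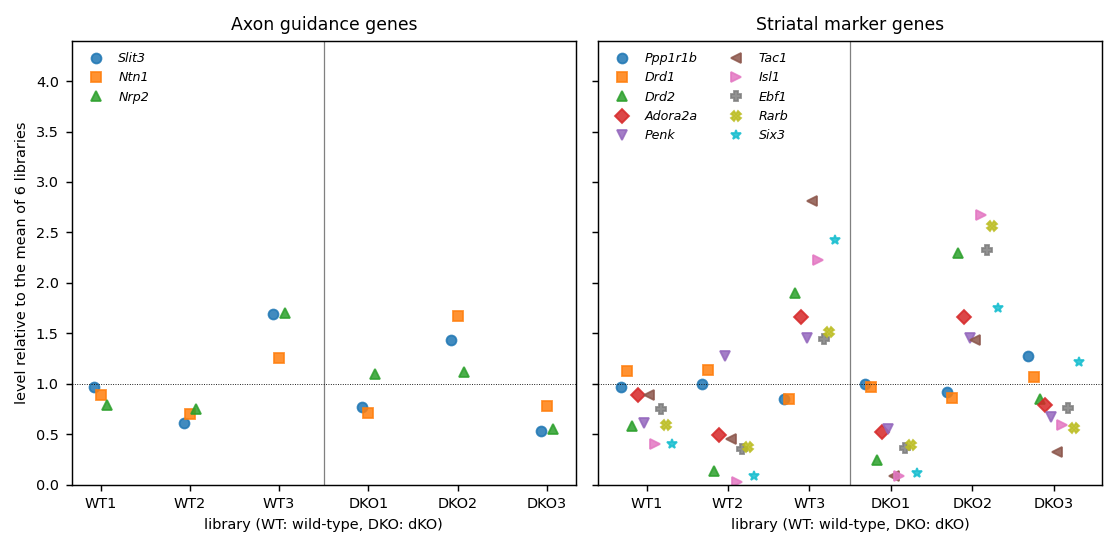
Level of 3 axon guidance genes (left) and 10 striatal marker genes (right) in each library, each divided by that gene's mean over the 6 libraries. *Slit3*, *Ntn1* and 8 of the 10 markers are highest of their genotype in WT3 and DKO2, *Ppp1r1b* and *Drd1* are lowest there, and *Nrp2* stands out in WT3 only.

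*Nrp2* followed this only in part, with 1094, 1039.7 and 2365 normalized counts in wild-type and 1529, 1549 and 763 in dKO libraries. It was highest in wild-type library 3, while dKO libraries 1 and 2 were nearly equal. None of the 10 striatal markers had an unadjusted p under 0.05 between the genotypes, and the part of striatal tissue or of these other cells in the values was not tested. Without wild-type library 3 and dKO library 2, 5 of the 51 genes had an unadjusted p under 0.05 (9.80% against 7.10% of all features), and none had an adjusted p under 0.05 by limma.

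The median level of the genes also differed by library. Their median deviation from the wild-type mean was 0.16 on the log2 scale in dKO library 1 and -0.11 in dKO library 3, and between -0.03 and 0.05 in the other 4. Wild-type libraries are set here against their own mean, which keeps their values small. Over all features the median was within 0.01 of 0 in every library, but division by size factors brings it there, so it is no contrast. The annotated exons of the 51 genes have a median length of 8054 bp against 4485.5 bp over features with a length. After removal of the trend with exon length in each library, the median deviation was 0.08 in dKO library 1 and remained -0.10 in dKO library 3. Without both libraries numbered 1, 4 of the 51 genes had an unadjusted p under 0.05 (7.84% against 9.37% of all features).

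Markers of other cell types differed between the genotypes beside these genes, and their part in the values above was not tested. All 5 markers of oligodendrocyte precursors were lower in dKO cortex, 3 with an unadjusted p under 0.05, and their summed level was between 6865 and 11942 normalized counts in wild-type and between 3804 and 6466 in dKO libraries. All 6 markers of intermediate progenitors were higher, 5 with an unadjusted p under 0.05, with sums of 8880 to 12261 and of 12916 to 16165. *Eomes*, which encodes TBR2, was among them, with a log2 fold change of 0.49 (SE 0.16). By immunofluorescence, the study reports fewer TBR2-positive progenitors in the dKO cortex at E18.5. Whole-cortex RNA and counts of stained cells are unlike measures, and the difference between them was not tested. Of 7 endothelial markers, *Flt1* and *Kdr* had an unadjusted p under 0.05 and were lower, and the sums overlapped (5388 to 6844 and 5111 to 5747). Of 7 meningeal fibroblast markers 2 (*Dcn* and *Aldh1a2*) were lower by that measure. The sums were 599 to 1679 in wild-type and 565 to 635 in dKO libraries. *Aldh1a2* had 77.1 normalized counts in wild-type library 3 and 0 to 10.7 in the other libraries. It reached the minimum mean for testing through wild-type library 3, so its direction is tied to that filter. *Dcn* had 138 in wild-type library 3, 29.5 and 25.8 in the other wild-type libraries and 9.08 to 22.0 in dKO libraries. The 3 of 6 cortical identity genes with an unadjusted p under 0.05, *Emx1*, *Neurod2* and *Bcl11b*, were higher, while *Slc17a7* had a log2 fold change of -0.28. By the same measure 2 of 8 radial glia markers (*Pax6* and *Vim*), 2 of 7 deep-layer neuron markers (*Bcl11b* and *Fezf2*) and 2 of 5 upper-layer neuron markers (*Cux1* and *Pou3f2*) were higher and none lower. By sign alone, 4 radial glia markers were positive and 4 negative, with *Hes5* at -0.51 and *Slc1a3* at -0.39. Deep-layer markers were 5 positive and 2 negative, and upper-layer markers 4 and 1. Over all features, 4.92% were higher and 6.58% lower by an unadjusted p under 0.05. No marker in these lists had an adjusted p under 0.05 by limma.

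The wider guidance machinery was examined in 3 further lists, and none of their genes had an adjusted p under 0.05 by limma. Of 25 other members of the same families that could be tested, 5 had an unadjusted p under 0.05 (20%, background 11.5%). Those 5 were lower in dKO cortex (background 6.58%). The genotypes did not overlap for 6 of the 25 (24%, background 16.4%). In these, dKO was above for 4 (16%, background 7.89%) and below for 2 (8%, background 8.48%). The smallest values belonged to the Eph receptors *Epha10* (log2 fold change -0.88, SE 0.31) and *Epha8* (-0.49, SE 0.17) and to *Robo3* (-1.51, SE 0.57), a Robo receptor of commissural axons that had 22.8 normalized counts at most in any library. *Robo3*, which is among the 5, reached the minimum mean of 10 through its wild-type libraries, so its direction is tied to that filter. *Epha8* had 910, 759 and 968 normalized counts in wild-type and 506, 831 and 576 in dKO libraries, so that dKO library 2 lay in the wild-type range. The fold changes of *Epha8* and *Epha10* were opposite in sign to those of *Epha3*, *Epha4* and *Ephb1*.

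Of 62 intracellular effectors, 2 were higher and 1 lower by an unadjusted p under 0.05, which is 4.84% of the list against 11.5% of all features. *Enah*, an actin regulator of the growth cone, had a log2 fold change of 0.29 (SE 0.09), the small GTPase gene *Rac1* of -0.19 (SE 0.07), and the guanine nucleotide exchange factor gene *Arhgef7* of 0.18 (SE 0.07). *Enah* had 3046, 3198 and 2719.5 normalized counts in wild-type and 3849.7, 3435 and 3650.1 in dKO libraries, with no overlap. Of 26 axonal adhesion and co-receptor genes, 2 were higher and 3 lower by that measure, 19.2% of the list. *Fzd3*, a receptor needed for major forebrain tracts, had a log2 fold change of 0.28 (SE 0.10), and the contactins *Cntn4* and *Cntn1* had -1.18 (SE 0.42) and -0.35 (SE 0.14). *Cntn4* was lowest in dKO library 3, with 29.0 normalized counts against 86.2 and 105 in the other dKO libraries.

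Reads may be shared where annotated exons overlap. In GENCODE M21, 9 of the 51 genes have an exon that overlaps one on the opposite strand (*Srgap3*, *Unc5a*, *Sema4c*, *Plxna1*, *Plxna4*, *Plxnb1*, *Epha6*, *Ephb1* and *Efna3*) and 4 overlap one on the same strand (*Srgap1*, *Sema4a*, *Nrp1* and *Plxnc1*). The libraries are stranded, but the strand setting of the counting is not given in the sources used here, so the values of these genes are uncertain to that extent.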

How the data were processed

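PolyA+ libraries (TruSeq Stranded mRNA, 150 bp paired-end) of 3 wild-type and 3 dKO samples of E18.5 cortex were sequenced, with groups taken from the labelled genotype. GenoSplice analysed the reads for the authors with the FAST database. The submitters' processing notes name STAR 2.7.5a, SAMtools, Picard, FastQC, DESeq2 and mm10; the counting program is not given in the sources used here. The deposited signal of a feature is its read count divided by a library size factor. Values were whole multiples of 1 read (100% within 0.01 read), and reads were recovered from them.

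After addition of a pseudocount of 1, log2 values of the 18970 features averaging 10 or more normalized counts were fitted by genotype with limma 3.58.1 in R 4.3.3, using its trend and robust settings, and a Benjamini-Hochberg adjusted p under 0.05 was called. The scale understates changes of low genes. Exact permutation tests were two-sided. Alternatives were other pseudocounts, filters and normalizations, edgeR 4.0.16 and DESeq2 1.42.0 on recovered reads, a replicate block, a correction for exon length, and libraries left out. The fit was tested on simulated data. Exon lengths came from GENCODE M21 (GRCm38), matched by symbol and position for all 51 genes. Sums and figures used Python 3.11.15.

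The genes and lists were chosen with earlier results of these data known. All 51 are named. Library values are given for genes with an unadjusted p under 0.05, genes without overlap whose means differ at least 1.25-fold, the gene of each family with the highest level per kb, and *Plxna1* and *Sema6c*. *Slit3*, *Ntn1*, *Nrp2* and *Robo2* were added after their values were seen. In the other lists, the 3 genes with the smallest p are named, and the marker genes were named after their values were seen. The other marker lists, of interneurons, Cajal-Retzius cells, microglia, erythroid cells and thalamus, had no gene with an unadjusted p under 0.05. Some genes of these lists are not reported here and were left out of their counts and sums. Splicing was not analysed here.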

Additional observations from a re-analysis of the deposited data

How the results depend on the processing

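The number of the 51 genes with an adjusted p under 0.05 was 0 under every alternative tried except DESeq2 on recovered reads, where it was 1. The number with an unadjusted p under 0.05 was 10 in the reported fit. Shares in parentheses are those of the 51 genes and of all features in the same setting, 19.6% and 11.5% as reported. The number stayed at 10 with pseudocounts of 0.1 and 10, a minimum mean of 50, TMM rescaling, edgeR, DESeq2 and features with a symbol only. In those settings the share of all features was from 11.3% to 11.9%. It was 9 without a filter beyond a mean above 0 (17.6% and 9.12%) and with length correction (17.6% and 12.6%). It was 6 with quantile normalization (11.8% and 10.03%), 4 in limma without the trend and robust options (7.84% and 9.88%), 6 in the replicate block combined with length correction (11.8% and 12.1%), 4 without both libraries numbered 1 (7.84% and 9.37%), 5 without the library of each genotype highest in striatal markers (9.80% and 7.10%; an alternative chosen after seeing the data), and from 5 to 14 with single libraries left out. It was 5 (9.80%) without wild-type library 1, wild-type library 3 or dKO library 1, against 8.10%, 7.35% and 11.9% of all features, and 14 (27.5% and 14.3%) without wild-type library 2. Without dKO library 2 it was 10 (19.6% and 12.2%), and without dKO library 3 it was 8 (15.7% and 6.43%). The number without overlap was 16 without both libraries numbered 1, 16 without those highest in striatal markers and from 10 to 19 with single libraries left out, against 9 with all 6, since fewer libraries overlap less by construction. The share of all features was not counted in these settings, so these numbers are no result about the 51 genes.

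None of the 10 genes with an unadjusted p under 0.05 changed sign in any alternative, and 27 of the 51 never did. The 10 were picked by p in these same libraries, so their kept sign is no separate support. Of 765 single-gene log2 fold changes under alternatives other than leaving out 1 library, 31 changed sign, all between -0.10 and 0.0765; the cause was not tested. With TMM rescaling *Sema4d* was at 0.00158. With quantile normalization *Epha6* was at 0.0765, *Sema6c* at -0.00790, *Efna3* at -0.0434, *Sema3a* at -0.00527, *Plxna1* at -0.0622, *Efnb2* at -0.00427 and *Neo1* at -0.0310. With edgeR *Sema4d* was at 0.00986, *Epha6* at 0.0258 and *Plxnb1* at 0.00466, and with DESeq2 at 0.00680, 0.0211 and 0.000850. With length correction, with or without the replicate block, *Sema3a* was at -0.0239 and *Plxna1* at -0.0144. Without both libraries numbered 1, *Draxin* was at -0.0196, *Sema3a* at -0.0272, *Sema3c* at -0.0369, *Nrp1* at -0.0120 and *Sema7a* at 0.0540. Without the libraries highest in striatal markers, *Nrp2* was at 0.0187, *Ntn4* at 0.0467, *Ntn1* at -0.0904, *Unc5a* at 0.0458, *Sema4d* at 0.0343, *Sema3c* at -0.0355, *Plxna1* at -0.10 and *Neo1* at -0.0498.

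With single libraries left out, 20 genes changed sign. Their log2 fold changes ranged from -0.12 to 0.0822 for *Sema4d*, -0.20 to 0.28 for *Epha6*, -0.23 to 0.0213 for *Slit1*, -0.14 to 0.00106 for *Sema7a*, -0.0929 to 0.12 for *Plxnb1*, -0.12 to 0.0754 for *Plxna3*, -0.13 to 0.0581 for *Ntn4*, -0.0323 to 0.16 for *Srgap1*, -0.31 to 0.30 for *Ntn1* and -0.0122 to 0.23 for *Sema5b*. They ranged from -0.0360 to 0.0733 for *Sema3a*, -0.0791 to 0.13 for *Plxna1*, -0.0890 to 0.19 for *Neo1*, -0.40 to 0.19 for *Nrp2*, -0.00830 to 0.16 for *Plxna2*, -0.63 to 0.13 for *Slit3*, -0.0793 to 0.0682 for *Unc5a*, -0.0408 to 0.0566 for *Efna3*, -0.0476 to 0.23 for *Plxna4* and -0.0191 to 0.21 for *Sema3c*.

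The deviations of same-numbered libraries from their genotype means had correlations of 0.098, -0.228 and -0.079. Those of differently numbered libraries ran from -0.138 to 0.205. The same-numbered values were thus not higher as a set, but so few libraries cannot decide whether the numbers pair them. With the replicate block alone, 7 genes (13.7% and 12.2% of all features) had an unadjusted and 0 an adjusted p under 0.05. Of 32 genes with a log2 fold change of at least 0.1 in size, 23 were moved by over 1.5 times when 1 library was left out. *Slit2*, *Sema3d*, *Sema4a*, *Sema4c*, *Sema6a*, *Plxnc1*, *Epha3*, *Epha4* and *Ephb1* were not.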

Other observations

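Features without a symbol that had enough reads to be tested overlap the spans of 15 of the 51 genes, 16 features in all, some of them reaching past the gene. None had an adjusted p under 0.05 by limma, and 2 had an unadjusted p under 0.05, both lower in dKO cortex. Both reached the minimum mean of 10 normalized counts through their wild-type libraries, so that their direction is tied to the filter, and their values are given as a description. The feature inside *Srgap3*, on chromosome 6 from 112758203 to 112758597 (mm10), had 18.1, 18.3 and 27.2 normalized counts in wild-type and 4.54, 2.09 and 2.32 in dKO libraries, whereas *Srgap3* itself had a log2 fold change of 0.11. The feature that overlaps the start of *Efna2*, on chromosome 10 from 80178980 to 80181480, had 11.4, 22.6 and 19.3 in wild-type and 2.72, 6.27 and 6.96 in dKO libraries, against a log2 fold change of -0.06 for *Efna2*. What these features are is not given in the deposited table, and they were named after their values were seen.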
